A study of Homo sapiens with 8 samples.

Results

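Transcripts of matrix metalloproteinases (MMPs) and of their tissue inhibitors (TIMPs) were examined in H1975 and HCC44, established cell lines from human lung cancers. The 10 genes were chosen by name from these families: the proteases MMP1, MMP2, MMP3, MMP7, MMP9, MMP10 and MMP14 and the inhibitors TIMP1, TIMP2 and TIMP3. They and the gene lists below were chosen with earlier results of these data known. All 10 were found among the 61228 gene names of the count tables. Both lines are labelled wild type, and each was grown for 96 hours with ACBI1 or with the solvent DMSO. The 4 groups, H1975 DMSO, H1975 ACBI1, HCC44 DMSO and HCC44 ACBI1, held 2 libraries each. The labels give the ACBI1 concentration as 1 mM, a unit that is uncertain for a compound of this kind. ACBI1 is a degrader: it links the VHL ubiquitin ligase to the chromatin remodelling proteins SMARCA2, SMARCA4 and PBRM1, which are then destroyed. Each group is 1 established line, and the labels do not say that its libraries came from separate cultures, so p-values measure the spread between these libraries, which may be technical.

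MMPs are zinc-dependent enzymes that cut collagens, laminins, other matrix proteins and many cell-surface proteins. Most are secreted as inactive proenzymes and some, such as MMP14, are held in the cell membrane. TIMPs bind the active site and block it, so the balance of the families bears on how much matrix is cut. TIMP2 has a further role, since it bridges MMP14 to the proenzyme of MMP2 and so helps to activate it. In lung tumours MMPs are known for their part in invasion, and much of the supply comes from stromal cells that a cell line lacks.

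Counts assigned to genes ranged from 62467286 to 70455517 per library, so that 3 counts, taken as the detection floor, stood for 0.0399 to 0.0480 CPM. Levels are CPM, counts relative to library size with TMM scaling, given as mean ± SD with n = 2. All 8 libraries correlated best with the other library of their own group. Of 10 lung epithelial markers, 8 were at 1 CPM or more in both H1975 groups and 6 in both HCC44 groups. SFTPB and SFTPC were under 1 CPM in both lines, and NKX2-1 and NAPSA were so in HCC44. The summed epithelial markers were 5163 to 5423 CPM in H1975 DMSO and 2351 to 2835 CPM in H1975 ACBI1, and 940 to 980 and 1199 to 1658 CPM in HCC44. Their part in the results below was not tested. Summed markers of fibroblasts, endothelial cells and leukocytes were at most 16.1, 4.02 and 3.70 CPM in any library. DCN, CD3E and MS4A1 had no counts in any library, whereas others of these markers were detected. Of 6 fibroblast markers, 2 were at 1 CPM or more in HCC44 DMSO and 3 in HCC44 ACBI1. THY1 was the highest of them there, at 9.25 and 6.58 CPM. In H1975, 0 were so with DMSO and 1 with ACBI1. Of 5 endothelial markers, 2 were so in HCC44 DMSO and 0 in each other group. The leukocyte marker CD14 was at 1.05 to 3.38 CPM in the 4 groups. In bulk RNA, fewer cells with a transcript and less transcript per cell cannot be told apart.

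A gene was called where edgeR's quasi-likelihood test, adjusted by the Benjamini-Hochberg method over 21307 genes, gave an adjusted p under 0.05. Fold changes are log2 values of ACBI1 over DMSO with a standard error (SE). In H1975, 31.3% of all genes were called, 16.7% as lower and 14.6% as higher. In HCC44 34.9% were called, 17.4% as lower and 17.5% as higher. With library totals in place of TMM, the median gene moved up on the log2 scale, by 0.20 for H1975 and by 0.09 for HCC44. The share of calls that were rises then was 72.3% against 46.6% for H1975 and 60.5% against 50.01% for HCC44. Directions are therefore relative to the TMM scale, and the members for which scaling mattered are named below.

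With ACBI1, none of the 10 members was called as risen. Of the 8 that were tested, 4 (50%) fell in each line, against 16.7% of all genes in H1975 and 17.4% in HCC44. In H1975 the 4 were the gelatinase MMP9, the stromelysin MMP10, the membrane protease MMP14 and the inhibitor TIMP2. In HCC44 they were the collagenase MMP1, MMP9, MMP14 and the inhibitor TIMP1. Thus MMP9 and MMP14 fell in both lines, where 7.08% of all genes did so. None rose in both, as 5.83% of all genes did, and none was called in opposite directions, as 2.23% were. MMP3 and TIMP3 did not pass the filter on low counts, and the other 8 members were tested. MMP10 passed it largely through H1975 DMSO (21 and 19 counts), the group from which it fell. Its place in the H1975 share is therefore not independent of the filter. Leaving out HCC44 DMSO replicate 2 or HCC44 ACBI1 replicate 2 reduced the HCC44 count from 4 to 2.

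**Figure D1:**
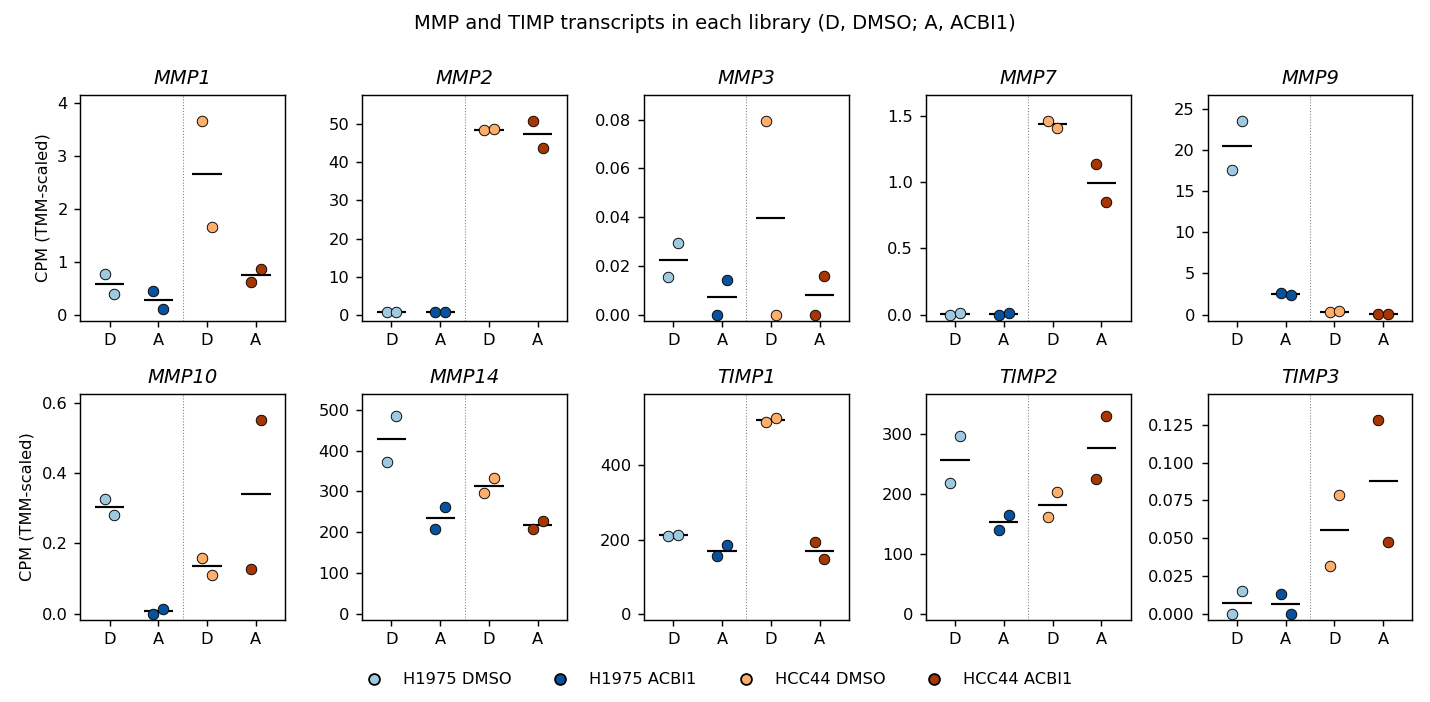
TMM-scaled CPM (vertical axis, a separate linear scale per gene) of the 10 members in each of the 8 libraries; points are libraries and bars are the means of 2 libraries in each group. MMP9 is high only in H1975 DMSO, MMP2 and MMP7 only in HCC44, and TIMP1 in HCC44 DMSO stands at 518 and 529 CPM above every other group.

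**Figure D2:**
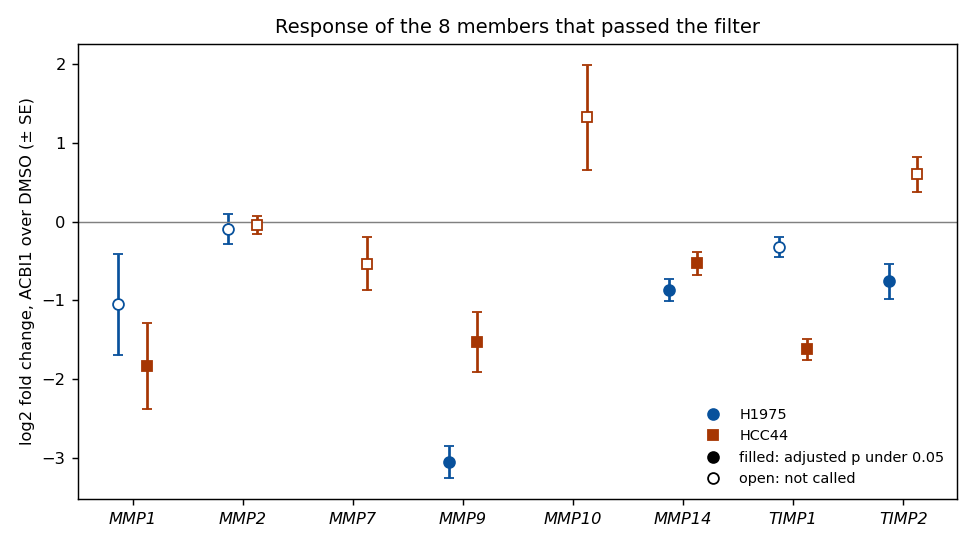
Log2 fold change of ACBI1 over DMSO with its SE (vertical axis) for members that passed the filter, H1975 as circles and HCC44 as squares, filled where called. MMP7 and MMP10 in H1975 are not drawn because a group had 10 or fewer counts. MMP9, TIMP1 and TIMP2 are the members drawn in both lines whose responses had a called difference.

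Per length, MMP14 was the most abundant of the 7 proteases in all 8 libraries. It is a membrane-anchored collagenase and lies on chromosome 14 from 22836557 to 22849027 (GRCh38). Its level was 372 and 485 CPM in the H1975 DMSO libraries and 208 and 262 CPM with ACBI1. In HCC44 it was 296 and 333 CPM with DMSO and 209 and 227 CPM with ACBI1. In each line both ACBI1 libraries lay below both DMSO libraries. The fall was 0.87 on the log2 scale in H1975 (SE 0.14, adjusted p 0.00138 by edgeR) and 0.53 in HCC44 (SE 0.14, adjusted p 0.0145 by edgeR). The HCC44 call was lost without DMSO replicate 2 (-0.44), without ACBI1 replicate 1 (-0.47) and without ACBI1 replicate 2 (-0.59). The HCC44 response minus the H1975 response was 0.34 with an SE of 0.20, which was not called (adjusted p 0.279 by edgeR).

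The gelatinases MMP9 and MMP2, which cut denatured collagen and collagen IV, marked different lines. MMP9 (chromosome 20, 46008908 to 46016561) stood at 17.5 and 23.5 CPM in H1975 DMSO and at 2.59 and 2.35 CPM in H1975 ACBI1. In HCC44 it had 19 and 25 counts with DMSO and 7 and 8 with ACBI1, or 0.347 ± 0.0635 and 0.119 ± 0.00979 CPM. The groups did not overlap in either line, although the HCC44 values rest on few reads. MMP9 fell by 3.05 on the log2 scale in H1975 (SE 0.21, adjusted p 8.4e-06 by edgeR) and by 1.53 in HCC44 (SE 0.38, adjusted p 0.010 by edgeR). The HCC44 call was lost without DMSO replicate 2 (-1.33) and without ACBI1 replicate 1 (-1.45). The antisense gene SLC12A5-AS1 shares 18.4% of the exon bases of MMP9. Its counts in the H1975 libraries were 89 and 84 with DMSO and 110 and 127 with ACBI1, so that they did not fall with those of MMP9. Whether the counting used strand is not given in the sources used here, so reads on shared bases cannot be assigned.

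The response of MMP9 differed between the lines by 1.52 (SE 0.47, adjusted p 0.0469 by edgeR), that is, the fall was larger in H1975. Of the 8 tested members, 4 (50%) had a called difference, of which MMP9, MMP10 and TIMP2 were more positive in HCC44 and TIMP1 more negative. MMP10, counted here, passed the filter largely through H1975 DMSO. Among all genes 18.6% had a called difference, 10.2% more positive and 8.4% more negative in HCC44. With library totals the share more positive went from 54.9 to 40.5% of these calls. The members' count became 2 without H1975 DMSO replicate 2, H1975 ACBI1 replicate 1, H1975 ACBI1 replicate 2 or HCC44 DMSO replicate 1. The MMP9 call lies at the threshold: it was lost with RLE size factors (1.49) and library totals (1.41). It was also lost in 7 of the 8 fits that left out 1 library, where the difference ranged from 1.24 to 1.73, and it was kept without H1975 DMSO replicate 1.

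MMP2 (chromosome 16, 55389700 to 55506691) was an HCC44 transcript. Its libraries held 48.5 and 48.8 CPM with DMSO and 50.9 and 43.9 CPM with ACBI1 in HCC44. In H1975 all 4 libraries held 39 to 43 counts, or 0.559 to 0.636 CPM. The groups overlapped in both lines. The fold change was -0.09 with an SE of 0.19 in H1975 and -0.04 with an SE of 0.11 in HCC44, and the sign of each depended on the scaling (0.11 and 0.055 with library totals). Neither was called, with adjusted p-values of 0.785 and 0.844 by edgeR.

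MMP1, the interstitial collagenase that opens fibrillar collagens, was higher in HCC44. Its HCC44 counts were 231 and 106 with DMSO and 39 and 55 with ACBI1. In CPM these were 3.67 and 1.66 against 0.624 and 0.865, so that the groups did not overlap although the DMSO libraries lay far apart. The fall in HCC44 was 1.84 (log2, SE 0.55, adjusted p 0.0275 by edgeR). It was -1.16 and not called without DMSO replicate 1, the library with the most MMP1. The call was also lost without ACBI1 replicate 1 (-1.62) and without ACBI1 replicate 2 (-2.09). In H1975 the counts were 50 and 26 with DMSO and 33 and 8 with ACBI1, which overlap, and the fold change of -1.05 (SE 0.64) was not called. It was called without the filter (-1.05) and without ACBI1 replicate 1 (-2.30). No difference in response was called between the lines (-0.79, SE 0.85, adjusted p 0.581 by edgeR). WTAPP1, on the opposite strand, shares 7.61% of the exon bases of MMP1. It had 35 and 48 counts in HCC44 DMSO and 88 and 128 in HCC44 ACBI1, opposite in direction to those of MMP1.

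The stromelysins MMP10 and MMP3, which cut matrix proteins broadly and activate other proenzymes, were scarce. MMP10 had 21 and 19 counts in H1975 DMSO and 0 and 1 in H1975 ACBI1. The scaled ratio of DMSO over ACBI1 counts was 44.2 with an exact 95% interval of 7.49 to 1789.6, which covers counting error only. The fall was called (adjusted p 0.00497 by edgeR). In HCC44 the counts were 10 and 7 with DMSO and 8 and 35 with ACBI1. These overlap, and the fold change of 1.33 (SE 0.67) was not called (adjusted p 0.151 by edgeR). Its sign rests on ACBI1 replicate 2, without which it was -0.067. It was 2.02 and called without ACBI1 replicate 1. The difference between the lines was called (adjusted p 0.00713 by edgeR). Its fitted size rests on a single count in H1975 ACBI1. MMP3 had at most 5 counts in a library, with 3 and 1 counts in the H1975 groups and 5 and 1 in the HCC44 groups. A change in it was not detectable at this depth.

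MMP7, or matrilysin, a small protease made by epithelial cells, was detected in HCC44. Its counts there were 92 and 90 with DMSO and 71 and 54 with ACBI1, or 1.44 ± 0.0367 and 0.993 ± 0.203 CPM. The groups did not overlap, yet the change of -0.53 (SE 0.33) was not called (adjusted p 0.249 by edgeR). In H1975 it had 1 count in each group.

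MMP7, MMP10, MMP1 and MMP3 lie in that order in a run of 9 MMP genes on chromosome 11, between 102520508 and 102955734. Sequence before the start of MMP7 and MMP10 is shown to set a gene found almost only in HCC44 beside one of the same run that fell in H1975. Each run is the 250 bases that precede the RefSeq start (GRCh38.p14, minus strand), written 5′ to 3′. Capitals mark matches to TGANTCA, a loose form of the AP-1 motif in which N is any base. MMP7 covers chr11:102530748-102530997 and MMP10 covers chr11:102780629-102780878.
MMP7: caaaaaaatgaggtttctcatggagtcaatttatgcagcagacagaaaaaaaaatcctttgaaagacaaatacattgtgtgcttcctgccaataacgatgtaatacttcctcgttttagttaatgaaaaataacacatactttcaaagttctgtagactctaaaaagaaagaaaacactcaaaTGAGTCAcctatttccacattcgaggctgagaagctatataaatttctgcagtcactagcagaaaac
MMP10: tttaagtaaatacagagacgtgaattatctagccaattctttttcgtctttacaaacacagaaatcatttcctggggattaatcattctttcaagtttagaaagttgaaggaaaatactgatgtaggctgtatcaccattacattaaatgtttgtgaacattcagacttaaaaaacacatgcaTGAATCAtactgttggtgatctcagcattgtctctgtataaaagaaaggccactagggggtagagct
Each held 1 match to TGANTCA, which begins 67 bases before the start in both and reads TGAGTCA in MMP7 and TGAATCA in MMP10. Each also held 1 match to TATAAA, 30 bases before the start in MMP7 and 31 in MMP10, and it does not overlap the other. On either strand, TGANTCA was found in 6.6% and TATAAA in 11.1% of the 27305 RefSeq windows of the same length. The windows of MMP14, TIMP1 and TIMP3 held no match to either pattern. Near forms, such as TGAGTAA in the TIMP1 window, were not counted. A match is a run of letters and not a shown binding site. MMP10 was detected in both lines and MMP7 almost only in HCC44.

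TIMP1, a secreted inhibitor of most MMPs with growth-promoting activity of its own, was the most abundant inhibitor per length in all 8 libraries. It lies on chromosome X from 47582313 to 47586789, inside SYN1 on the opposite strand and sharing none of its exon bases. Its level was 518 and 529 CPM in HCC44 DMSO and 194 and 146 CPM in HCC44 ACBI1. The H1975 libraries held 211 and 213 CPM with DMSO and 155 and 185 CPM with ACBI1. The ACBI1 libraries lay below the DMSO libraries in both lines. The fall in HCC44 was 1.62 (log2, SE 0.13, adjusted p 1.33e-05 by edgeR) and was called in every alternative fit. In H1975 the change of -0.32 (SE 0.13) was not called (adjusted p 0.0851 by edgeR), but was called without the filter (-0.32) and with H1975 fitted alone (-0.32). The difference between the lines was -1.30 (SE 0.18, adjusted p 0.00119 by edgeR), and it was called in every alternative fit. The ACBI1 means were 170 CPM in each line, so TIMP1 differed between the lines with DMSO and had nearly equal means with ACBI1.

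TIMP2, the inhibitor that also takes part in MMP2 activation, lies on chromosome 17 from 78852977 to 78925387. It stood at 218 and 297 CPM in H1975 DMSO and at 139 and 166 CPM in H1975 ACBI1. In HCC44 the libraries held 161 and 204 CPM with DMSO and 225 and 330 CPM with ACBI1. The groups did not overlap in either line, with the ACBI1 libraries lower in H1975 and higher in HCC44. The fall in H1975 was 0.76 (SE 0.22, adjusted p 0.0358 by edgeR). Its call was lost with library totals (-0.55), without DMSO replicate 2 (-0.46), without ACBI1 replicate 1 (-0.60) and without ACBI1 replicate 2 (-0.87). In HCC44 the value was 0.61 (SE 0.22) and not called (adjusted p 0.0698 by edgeR). It was called as a rise with DESeq2 (0.60), upper-quartile factors (0.66), library totals (0.70), a filter of 1 CPM in 2 libraries (0.62), no filter (0.61), non-robust dispersion (0.61) and without ACBI1 replicate 1 (0.86).

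The difference for TIMP2 between the lines was 1.36 (SE 0.31, adjusted p 0.0220 by edgeR). It was not called without H1975 DMSO replicate 2 (1.07), H1975 ACBI1 replicate 1 (1.21), H1975 ACBI1 replicate 2 (1.47) or HCC44 DMSO replicate 1 (1.201). Of the TIMP2 exon bases, 10.03% are shared with other genes. CEP295NL, one of these, had at most 17 counts in a library, against at least 10144 for TIMP2.

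TIMP3, an inhibitor that binds to the matrix and also blocks ADAM proteases, was near the floor. It had 1 count in each H1975 group and 7 and 11 counts in HCC44 DMSO and HCC44 ACBI1. The scaled ratio of ACBI1 over DMSO in HCC44 was 1.58 with an exact 95% interval of 0.559 to 4.81 for counting error only. No change was detectable at this depth.

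Between the lines, HCC44 DMSO and H1975 DMSO differed for 6 of the 8 tested members (75%). MMP7, counted here, passed the filter only through its HCC44 libraries. Of all genes tested 67.9% were called, 31.6% as higher and 36.4% as lower in HCC44. These DMSO libraries are also the controls of the comparisons above. MMP2 was higher in HCC44 by 6.29 (log2, SE 0.16, adjusted p 2.27e-10 by edgeR). MMP7 had 182 counts in HCC44 and 1 in H1975, a ratio of 190 with an exact 95% interval of 33.6 to 7529 for counting error only, and was called (adjusted p 2.19e-06 by edgeR). MMP1 and TIMP1 were also higher in HCC44, by 2.20 (SE 0.56, adjusted p 0.00609 by edgeR) and 1.30 (SE 0.13, adjusted p 5.78e-06 by edgeR). The proteases lower in HCC44 were MMP9, at -5.88 (SE 0.26, adjusted p 9.13e-09 by edgeR), and MMP14, at -0.45 (SE 0.14, adjusted p 0.0159 by edgeR). The MMP14 call was lost without H1975 DMSO replicate 2 (-0.19) and without HCC44 DMSO replicate 1 (-0.36). TIMP2 (-0.50, SE 0.22, adjusted p 0.0782 by edgeR) and MMP10 (-1.17, SE 0.67, adjusted p 0.146 by edgeR) were not called. TIMP2 was called as lower in HCC44 with DESeq2 (-0.49), library totals (-0.62), upper-quartile factors (-0.57), no filter (-0.51), non-robust dispersion (-0.50) and without H1975 DMSO replicate 1 (-0.71).

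Levels of the 10 members were compared with each other as CPM per kilobase of exon (GENCODE 29). In H1975 DMSO the order was TIMP1 at 138 ± 1.29, MMP14 at 96.01 ± 17.8, TIMP2 at 45.7 ± 9.97 and MMP9 at 8.78 ± 1.82. MMP1, MMP10 and MMP2 followed at 0.295 ± 0.141, 0.173 ± 0.0182 and 0.126 ± 0.00434, where MMP1 and MMP10 differed by less than the SD of MMP1. In HCC44 DMSO the order was TIMP1 at 339.6 ± 5.32, MMP14 at 70.4 ± 5.78, TIMP2 at 32.4 ± 5.31, MMP2 at 9.86 ± 0.0369 and MMP1 at 1.35 ± 0.722. The first 3 members were the same in both lines, and the gelatinase next among the members differed. Outside the members, MMP15 at 19.2 in H1975 DMSO and 13.9 in HCC44 DMSO lay above that gelatinase. TIMP4 at 15.8 did so in HCC44 DMSO. With ACBI1, TIMP2 at 49.3 ± 13.2 and MMP14 at 48.8 ± 2.91 did not differ beyond their spread in HCC44. In H1975 ACBI1, MMP14 at 52.6 ± 8.44 stayed above TIMP2 at 27.1 ± 3.33.

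The 7 MMPs and 3 TIMPs among the members were summed per kilobase to describe the balance of transcripts within a library, a ratio that scaling does not change. MMP14 made up 80.6 to 97.98% of the MMP sum and TIMP1 61.8 to 92.1% of the TIMP sum, so the sums follow mainly these genes. The TIMP sum over the MMP sum was 1.91 and 1.61 in the H1975 DMSO libraries and 2.60 and 2.504 with ACBI1. In HCC44 it was 4.62 and 4.41 with DMSO and 2.86 and 2.52 with ACBI1. For these 10 genes the ratio was thus higher with ACBI1 in H1975 and lower in HCC44. The sums depend on which genes enter, so they were repeated, after the data had been seen, over all 23 listed MMPs and 4 TIMPs. MMP15, a membrane protease at 11.8 to 20.6 CPM per kilobase, then made up 11.9 to 23.4% of the MMP sum. The ratio over all 27 genes was 1.41 and 1.24 in H1975 DMSO and 1.48 and 1.496 in H1975 ACBI1, so that the groups were close. In HCC44 it was 3.85 and 3.72 with DMSO and 2.23 and 1.76 with ACBI1, which remained lower, and the ACBI1 libraries overlapped between the lines only for the 10 genes. The ratio of TIMP2 to MMP14 was 0.464 to 0.530 in the 4 H1975 libraries. In HCC44 it was 0.431 and 0.485 with DMSO and 0.854 and 1.15 with ACBI1. With 2 libraries a group, an exact permutation test of such ratios could not pass the threshold, and none was run.

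**Figure D3:**
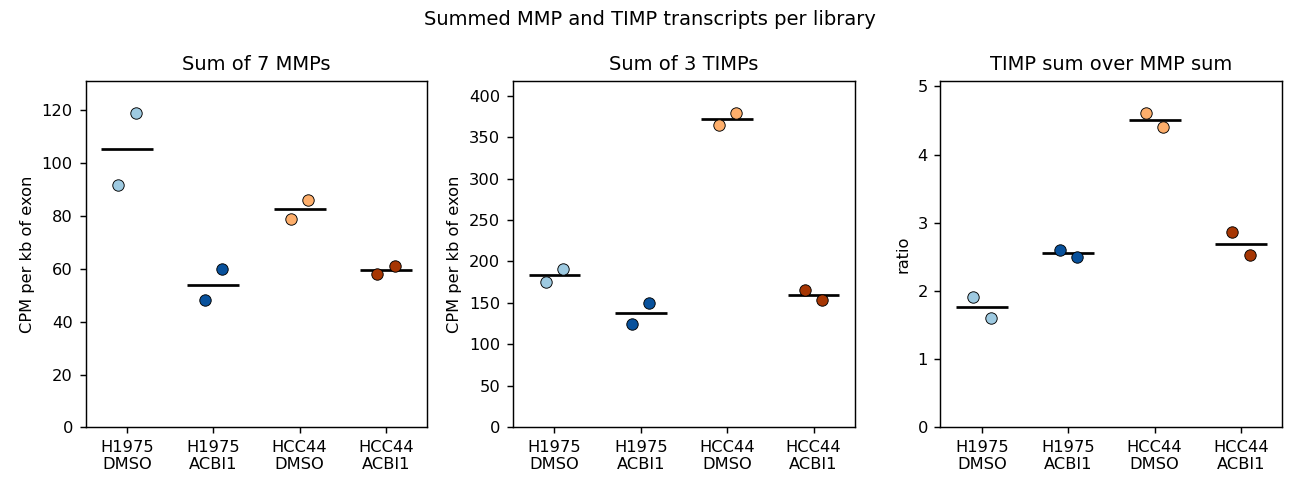
Summed CPM per kilobase of exon of the 7 MMPs (left) and the 3 TIMPs (middle) and their ratio (right), with 1 point per library and a bar at the mean of 2 libraries. The ratio lies at 1.61 to 1.91 in H1975 DMSO and 4.41 to 4.62 in HCC44 DMSO, and at 2.504 to 2.86 in the 4 ACBI1 libraries; over all 27 listed genes, which are not drawn, the ACBI1 libraries lie at 1.48 to 1.496 in H1975 and 1.76 to 2.23 in HCC44.

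Of the 17 other genes of these families, 12 were tested. In H1975 6 fell and 1 rose, so 58.3% of those tested were called against 31.3% of all genes. In HCC44 3 fell and 2 rose, or 41.7% called against 34.9% of all genes. The median fold change of the 12 was -1.03 in H1975 and -0.03 in HCC44, against -0.01 and 0.01 over all genes. TIMP4, an inhibitor with a narrow tissue range, stood at 11.5 and 15.5 CPM in H1975 DMSO and at 3.91 and 4.92 CPM in H1975 ACBI1. In HCC44 it stood at 27.6 and 24.7 CPM with DMSO and at 3.09 and 1.78 CPM with ACBI1. Its falls were 1.62 (SE 0.24, adjusted p 0.000821 by edgeR) and 3.43 (SE 0.26, adjusted p 1.02e-05 by edgeR), and the difference of -1.81 was called (adjusted p 0.00581 by edgeR). SYN2, on the opposite strand, shares 10.3% of its exon bases.

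MMP11, or stromelysin-3, moved the other way. Its libraries held 17.4 and 23.3 CPM in H1975 DMSO and 33.8 and 43.9 CPM in H1975 ACBI1, with 0.636 and 0.423 against 2.11 and 3.56 CPM in HCC44. All ACBI1 libraries lay above the DMSO libraries of their line. The rises were 0.93 (SE 0.24, adjusted p 0.0157 by edgeR) and 2.42 (SE 0.33, adjusted p 0.000468 by edgeR). The H1975 call was lost without DMSO replicate 1 (0.73) and without ACBI1 replicate 2 (0.75). MMP17, a membrane protease anchored by a lipid, rose in HCC44 by 1.12 (SE 0.32, adjusted p 0.0294 by edgeR). It was at 13.1 and 28.8 CPM in the HCC44 ACBI1 libraries, against 9.87 and 9.44 CPM with DMSO. The call was lost with HCC44 fitted alone (1.12), without DMSO replicate 1 (1.14) or 2 (1.09) and without ACBI1 replicate 2 (0.44).

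MMP13, collagenase-3, which lies at the end of the chromosome 11 run, had 245 and 164 counts in H1975 DMSO and 32 and 6 in H1975 ACBI1. That fall was 3.58 (log2, SE 0.65, adjusted p 0.00338 by edgeR). In HCC44 it had 10 and 7 counts in the groups, too few for a direction. MMP19 fell in both lines, by 2.78 in H1975 (SE 0.39, adjusted p 0.000542 by edgeR) and by 1.54 in HCC44 (SE 0.30, adjusted p 0.00258 by edgeR). Its H1975 counts were low, at 64 and 92 with DMSO and 19 and 6 with ACBI1. TMEM198B shares 17.4% of the MMP19 exon bases. MMP23B fell in HCC44 by 1.70 (SE 0.25, adjusted p 0.000451 by edgeR). In H1975, MMP24, MMP25 and MMP28 fell by 1.09, 1.57 and 0.95. Each of these calls was lost without a single library: MMP24 without DMSO replicate 2 (-0.50) or ACBI1 replicate 1 (-0.83), MMP25 without ACBI1 replicate 2 (-1.14), and MMP28 without DMSO replicate 1 (-0.89) or ACBI1 replicate 1 (-0.77). MMP24 and MMP25 share 21.8 and 35.2% of their exon bases with other genes, mainly antisense ones. MMP12, MMP26 and MMP27 had no counts in any library, and MMP8 and MMP20 had at most 2.

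**Figure D4:**
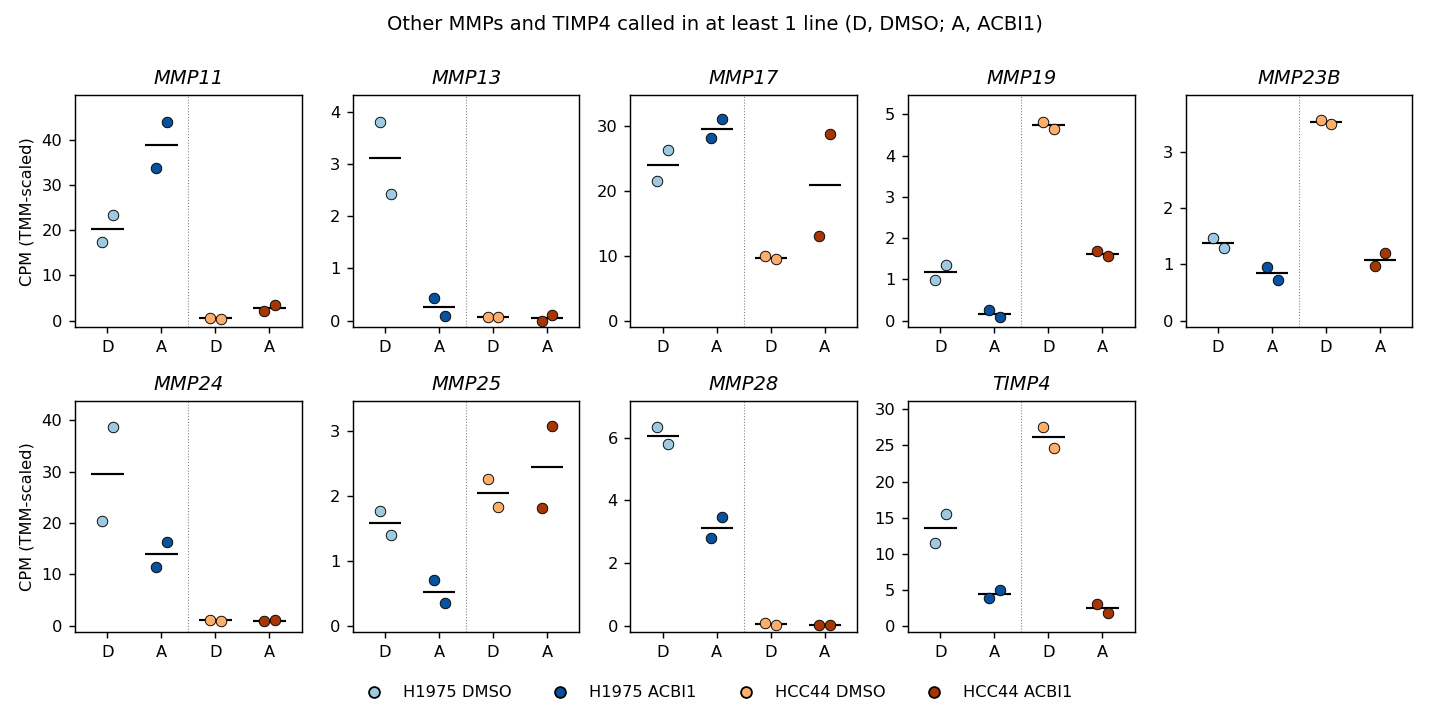
TMM-scaled CPM (vertical axis, a separate linear scale per gene) of the 9 other MMP and TIMP genes called in at least 1 line, in each of the 8 libraries; bars are means of 2 libraries. TIMP4 and MMP19 are lower and MMP11 higher in the ACBI1 libraries of both lines.

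Lists of genes that act with MMPs were counted beside them. Because the lists were chosen with earlier results of these data known, their shares describe the lists and are not independent support. Of the 12 genes of plasminogen activation, the serine protease route that activates several MMP proenzymes, 11 were tested. In H1975 7 fell and 1 rose, with a median of -1.03, so 72.7% of those tested were called against 31.3% of all genes. In HCC44 7 fell and none rose, with a median of -0.54, or 63.6% called against 34.9% of all genes. PLAT, the tissue plasminogen activator, fell in H1975, from 15.6 ± 2.56 to 3.16 ± 0.115 CPM (adjusted p 4.27e-05 by edgeR). In HCC44 the fall of PLAT was from 7.43 ± 0.331 to 0.816 ± 0.248 CPM (adjusted p 6.77e-06 by edgeR). Among the 7 H1975 falls, SERPINE2 had only 6 counts with DMSO and 0 with ACBI1. It passed the filter through its HCC44 libraries, with 17636 counts with DMSO and 7615 with ACBI1. The 1 rise was PLGRKT, a plasminogen receptor, at 0.51 in H1975 (SE 0.12, adjusted p 0.0102 by edgeR). It was not called without DMSO replicate 1 (0.46) or ACBI1 replicate 2 (0.47). The count of called genes went from 8 to 5 in H1975 without ACBI1 replicate 2. In HCC44 it went from 7 to 4 without DMSO replicate 2 and without ACBI1 replicate 1.

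Among 15 convertases, docking receptors and other inhibitors, 13 were tested. In H1975 7 fell and none rose, so 53.8% of those tested were called against 31.3% of all genes. In HCC44 4 fell and 2 rose, or 46.2% called against 34.9% of all genes. LCN2, a lipocalin that binds MMP9, fell in H1975, from 14.4 ± 7.27 to 1.39 ± 0.467 CPM (adjusted p 0.00993 by edgeR). In HCC44 LCN2 fell from 497 ± 140.5 to 35.6 ± 25.8 CPM (adjusted p 0.00271 by edgeR). The H1975 call for LCN2 was lost without the filter (-3.37) and when any of the 4 H1975 libraries was left out (-3.81 to -2.68). The count of called genes in H1975 went from 7 to 4 without DMSO replicate 2. THBS1, thrombospondin-1, which binds MMPs, rose in HCC44 from 66.9 ± 17.7 to 182 ± 11.2 CPM (1.44, SE 0.15, adjusted p 9.81e-05 by edgeR). It is among the 7 that fell in H1975, from 684 ± 10.1 to 262 ± 23.7 CPM.

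Of 30 listed matrix genes that MMPs cut, 27 were tested. In H1975 22 fell and none rose, with a median of -1.31, where 16.7% of all genes fell. Some of these falls rest on few counts, such as LAMA4 with 17 and 3 and BGN with 56 and 11 (DMSO and ACBI1). In HCC44 10 fell and 4 rose, with a median of -0.50, where 17.4% of all genes fell and 17.5% rose. COL7A1, the anchoring fibril collagen, fell in H1975, from 710.1 ± 246 to 55.3 ± 15.1 CPM (adjusted p 0.000235 by edgeR). TNC, or tenascin-C, fell in HCC44, from 366 ± 43.5 to 84.9 ± 0.985 CPM (adjusted p 6.6e-07 by edgeR). COL1A1 rose in HCC44 from 80.3 ± 13.03 to 302 ± 144 CPM (1.91, SE 0.35, adjusted p 0.00550 by edgeR), a call lost without the filter (1.92). Among the 10 HCC44 falls, COL1A2 had only 12 counts with DMSO and 0 with ACBI1, and it passed the filter through its H1975 libraries. For 13 of the 27 the difference between the lines was called, each more positive in HCC44, against 10.2% of all genes.

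Of 27 ADAM and ADAMTS proteases, relatives of the MMPs, 22 were tested. In H1975 6 fell and 2 rose, so 36.4% of those tested were called, near the 31.3% of all genes. In HCC44 5 fell and 5 rose, or 45.5% against 34.9% of all genes. The median was -0.38 in H1975 and 0.01 in HCC44, or 0.08 with ADAMTS9, which had no counts in 1 HCC44 group, at its floor. ADAMTS15, which cuts proteoglycans, fell in H1975 from 16.1 ± 4.29 to 6.83 ± 1.701 CPM. ADAMTS16 rose there from 5.56 ± 0.899 to 10.7 ± 2.65 CPM, and was not called without DMSO replicate 2 (0.84) or ACBI1 replicate 1 (0.70). In HCC44, ADAM22 rose from 4.32 ± 0.121 to 17.96 ± 0.862 CPM. ADAMTS7 fell there from 1.56 ± 0.0491 to 0.681 ± 0.239 CPM, and was not called without DMSO replicate 1 (-1.16) or ACBI1 replicate 1 (-0.87). The H1975 count went from 8 to 4 without DMSO replicate 2 and to 5 without ACBI1 replicate 1. The HCC44 count went from 10 to 6 without ACBI1 replicate 1.

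All 18 listed factors of the AP-1, ETS, RUNX, NF-kB and C/EBP families, which bind MMP promoters, were tested. In H1975 4 fell and 1 rose, with a median of -0.28. That is 27.8% called, below the 31.3% of all genes. In HCC44 4 fell and 6 rose, with a median of 0.16, or 55.6% called against 34.9% of all genes. RUNX2 fell in H1975 from 68.7 ± 7.25 to 44.1 ± 8.54 CPM. It was not called with library totals (-0.43), without DMSO replicate 2 (-0.47) or without ACBI1 replicate 1 (-0.42). ETV4 rose there by 0.38 (SE 0.10, adjusted p 0.0124 by edgeR), and was not called without DMSO replicate 1 (0.38) or ACBI1 replicate 2 (0.37). ETS2 fell in HCC44 from 187 ± 14.5 to 63.7 ± 4.803 CPM. ELF3 rose there from 6.49 ± 0.824 to 15.5 ± 4.65 CPM, and was not called without DMSO replicate 2 (1.14) or ACBI1 replicate 2 (0.92). The H1975 count of 5 became 2 without DMSO replicate 2 or ACBI1 replicate 1, 8 without the filter and 9 with the replicate block.

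**Figure D5:**
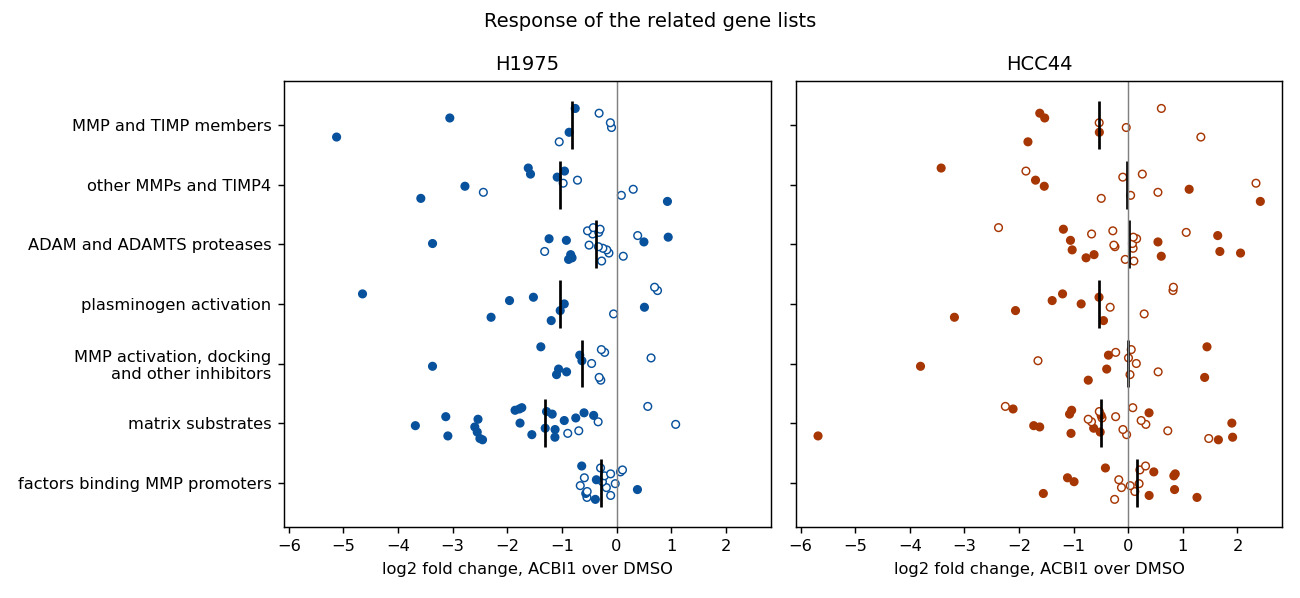
Log2 fold change of ACBI1 over DMSO (horizontal axis) for each tested gene of the 7 lists in H1975 (left) and HCC44 (right), filled where called, with a black bar at the list median. Fitted values of genes with few counts are included. The matrix list has its median at -1.31 in H1975 and -0.50 in HCC44.

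For each tested member, the genes with the most similar pattern over the 8 libraries were sought among the 14776 or 14777 other genes whose mean reached 1 CPM. Likeness was the root-mean-square difference of log2 CPM, each gene centred on its own mean, with a prior count of 2 that narrows the differences of genes with few counts. Since the 8 libraries form 4 groups, a small value mostly reflects the group means. MMP14 was closest to EVA1B (0.105), MBNL2 (0.106) and BMT2 (0.117). TIMP1 was closest to CRADD (0.128), SH3BP2 (0.153) and COPB2 (0.1555). TIMP2 was closest to RUNX2 (0.143), which is among the listed factors above, and NQO1 (0.171) was also near it. These abundant members had small distances, which a narrow range over the libraries and little counting noise also favour.

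MMP9 was closest to IFITM1 (0.177), LINC01638 (0.397) and MATK (0.437). MMP2 was closest to TNFSF11 (0.127), AKR1C2 (0.205) and C11orf96 (0.219). TNFSF11 had 0 counts in all 4 H1975 libraries and 119 to 179 in the HCC44 libraries, so its distance from MMP2 is set by the prior count. MMP7 was closest to LYPD6 (0.221), SV2A (0.248) and FMNL1 (0.269). MMP7 had at most 1 count in an H1975 library and LYPD6 had 2 to 7. The distances of MMP7 therefore also depend on the prior count. The collagenase and the stromelysin, which had few counts in some libraries, had larger distances. MMP1 was closest to INHBA (0.350), CTSS (0.409) and GNB3 (0.427). MMP10 was closest to SCIRT (0.633), H2AC13 (0.677) and AHR (0.731).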

How the data were processed

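Total RNA of 8 libraries was sequenced, 2 per group. The authors deposited, for every library, raw read counts by gene. The submitters' processing notes name TopHat2 2.1.1, HTSeq 0.11.0 and the build hg38; the annotation and the strand setting are not given in the sources used here. Rows that name no gene held 14.3 to 15.8% of each table and were left out.

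Members and lists were chosen with earlier results of these data known. All 155 listed genes matched GENCODE 29 (GRCh38), used for positions, exon lengths and overlaps. With edgeR 4.0.16 in R 4.3.3, filterByExpr left 21307 genes. TMM-scaled libraries entered 1 quasi-likelihood fit with a mean per group, robust dispersion and 4 residual degrees of freedom, tested two-sided. The SE was taken from the log2 fold change and its F statistic. The procedure was tested on simulated counts in which few genes changed, as many up as down, which cannot test the choice of scaling.

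Named from each related list are the called genes with the largest rise and fall per line at 1 CPM or more, all called genes of the families, and 3 nearest genes per member, of which 1 is not reported here. A ratio of counts with an exact 95% interval is given for MMP10 in H1975, TIMP3 in HCC44 and MMP7 between the lines. In each of these a group had 10 or fewer counts. For MMP3, and for MMP7 and TIMP3 in H1975, only counts are given. The MMP10 difference between the lines is a fitted value. No replicates were duplicates: chi-square over degrees of freedom was 21.7 to 43.5. Alternatives were DESeq2 1.42.0, other scalings and filters, separate fits, a replicate block, non-robust dispersion and each library left out. Promoter windows are from RefSeq (GRCh38.p14), where 5 of the 10 members matched. Figures used matplotlib 3.10.9.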

Additional observations from a re-analysis of the deposited data

Results flagged for a closer look

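For 4 members a test of the difference itself found unequal responses to ACBI1 in H1975 and HCC44. The log2 difference, HCC44 minus H1975, was 6.45 for MMP10, 1.52 for MMP9, -1.3 for TIMP1 and 1.36 for TIMP2. The MMP10 value rests on 1 count in H1975 ACBI1, so its size depends on the fit, although it was called with each of the 8 libraries left out. TIMP1 was likewise called with each library left out, with differences from -1.515 to -1.11. MMP9 and TIMP2 lost the call in 7 and 4 of these 8 fits.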

How the results depend on the processing

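The members called with 1 library left out numbered 3 to 4 in H1975, 2 to 3 in HCC44, 2 to 4 for the difference between the lines and 5 to 7 for the DMSO comparison, against 4, 4, 4 and 6 with all libraries. Over all genes, calls then numbered 3690 to 4590 against 6663 in H1975, 4945 to 6629 against 7438 in HCC44 and 2341 to 4134 against 3967 for the difference. These fits have fewer samples and 1 group with a lone library, which is assumed to vary like the others. Without the filter, 6 members were called in H1975.

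Deviations of libraries with the same number correlated at 0.374 (H1975) and 0.109 (HCC44). The labels give them only a number in common, so the block is given here alone. With the replicate block, 6358 genes had a called difference. It added the calls of TIMP1 in H1975 (-0.325), TIMP2 in HCC44 (0.589) and MMP14 for the difference (0.336). No paired analysis was possible for the DMSO comparison because its groups are different lines.

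No called member changed sign. Among values that were not called, the sign changed with library totals for MMP2 (0.111 in H1975, 0.055 in HCC44, -0.057 for the difference) and MMP7 (0.049 in H1975), and with upper-quartile factors for MMP2 in HCC44 (0.016). With 1 library left out, MMP2 lay between -0.131 and 0.003 (H1975), -0.146 and 0.067 (HCC44) and -0.053 and 0.16 (difference). MMP7 lay between -2.303 and 2.216 (H1975) and -2.75 and 1.77 (difference), MMP10 in HCC44 from -0.067 to 2.024 and MMP1 for the difference from -1.468 to 0.458. The cause was not tested. Depth limits MMP3, TIMP3, MMP10, and MMP7 in H1975.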
